A study of Mus musculus with 4 samples.

Results

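Kruppel-like factors (KLFs) are transcription factors that bind GC-rich and CACCC-type DNA through zinc fingers at the end of the protein. In the gut, KLF4 is known as a factor of growth arrest and differentiation in the surface epithelium and KLF5 as a factor of dividing crypt cells, while other members act as early response genes, as repressors or as hormone-induced regulators of metabolism. The 10 members described here are Klf2, Klf3, Klf4, Klf5, Klf6, Klf7, Klf9, Klf10, Klf13 and Klf15, of 12394 genes that have a probe set with a single gene symbol on the array. They were taken by symbol, with every probe set of the table that carries it, 27 probe sets in all.

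The arrays measured total RNA of YAMC cells, a mouse line derived from young adult colon epithelium and immortalised in a conditional way. One group spent 16 h in conditioned medium of the probiotic bacterium Lactobacillus GG (LGG), and the other received no treatment. Each group has 2 arrays, 1 at each of 2 dates in the titles, called date 1 and date 2 here, so that every date holds an LGG array and an untreated array. The labels do not say that the arrays come from separate cultures, so the spread between these arrays may be technical. The p-values rest on that spread, pooled mainly over other genes, and cannot be taken to measure a spread between cultures. Cells given unconditioned medium were not analysed here, so products of the bacterium and effects of the medium itself cannot be told apart.

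The deposited values are linear intensities, and the mean of an array, trimmed by 2% of its values at either end, lay between 500.1 and 513.5. Both arrays of date 1 have no value for the same 6307 of 22690 probe sets. The log2 intensities of the tested probe sets correlated at 0.946 between the LGG arrays, at 0.97 between the untreated arrays and at 0.94 and 0.931 between the groups at dates 1 and 2. The ratio of 3' to 5' Gapdh signal, a measure of RNA integrity, was 0.931 and 0.768 on the LGG arrays and 0.805 and 0.784 on the untreated arrays at dates 1 and 2. As a check of the labelled cell type, 3 of 12 markers of colon epithelium (Krt8, Krt18 and Krt19) lay above the filter for dim probe sets, while Epcam measured 8.5 and 9 on the LGG arrays and 6 and 7 on the untreated arrays, and Cdh1 and Vil1 were also below it. Of the 7 measured markers of fibroblasts and mesenchyme, 4 lay above the filter, among them Vim and Col1a1, as did 3 of 5 smooth muscle markers, 1 of 5 endothelial markers (Kdr) and 0 of 4 blood cell markers. The summed epithelial markers measured 3414.8 and 2920.9 on the LGG arrays and 2442.5 and 3307.3 on the untreated arrays. Of these, Krt18 was higher in LGG at each date (1966.8 and 1431.1, against 834.8 and 1319 untreated). Krt19 was lower in LGG at each date (577.9 and 615.2, against 868.2 and 1153.4 untreated). Krt8 differed in direction between the dates (614.8 and 639.4 in LGG, 431 and 653.3 untreated). The summed mesenchymal markers measured 20340.4 and 18365.4 on the LGG arrays and 24935.1 and 19429.9 on the untreated arrays. The summed smooth muscle markers measured 8347.2 and 6499.1 on the LGG arrays and 8267.2 and 6772.8 on the untreated arrays, and the endothelial ones 490.8 and 454.1 on the LGG arrays and 401.6 and 310.5 on the untreated arrays. Among the endothelial markers, Kdr measured 396.5 and 329.2 on the LGG arrays and 136.2 and 128.9 on the untreated arrays, while Tek (36.8 and 51.4 in LGG, 149.4 and 96.1 untreated) and Pecam1 (12.1 and 21.3 in LGG, 48 and 34.1 untreated) were lower in LGG. The part of these markers in the results was not tested.

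Of the 27 KLF probe sets, 13 were tested, 10 have a value at date 2 only and 4 have all values but a mean intensity under the filter of 101 (20% of the trimmed mean). The tested ones cover 8 genes. Klf9 and Klf15 had no tested probe set. A gene was represented by its brightest tested probe set, changes were fitted on log2(intensity + 25.2) with date as a block, and a call is a Benjamini-Hochberg adjusted p under 0.05 over all probe sets tested (limma). This scale understates the change of dim genes. A lower value in a whole culture does not tell fewer cells with the transcript from less transcript per cell.

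The promoters of Klf4, the only member called by this test, and of Klf2, its close relative that was not called, are shown to give the letters that KLF and SP factors and known inducers of these genes read. RefSeq windows of 250 bases before to 50 bases after the gene start (GRCm38.p6) were found for 8 of the 10 members. They are Klf4 on the minus strand at chr4:55532426-55532725 and Klf2 on the plus strand at chr8:72318812-72319111, and capitals mark the CACCC box (CACCC), the GC box (GGGCGG), the E-box (CACGTG) and the MEF2 site (CTA, any 4 bases, TAG) on either strand.
Klf4: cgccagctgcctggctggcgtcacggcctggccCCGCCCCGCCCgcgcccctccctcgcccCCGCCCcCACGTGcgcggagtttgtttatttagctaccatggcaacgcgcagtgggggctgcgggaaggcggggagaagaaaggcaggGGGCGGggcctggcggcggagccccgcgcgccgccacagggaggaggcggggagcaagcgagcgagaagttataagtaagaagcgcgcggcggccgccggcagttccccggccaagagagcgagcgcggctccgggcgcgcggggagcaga
Klf2: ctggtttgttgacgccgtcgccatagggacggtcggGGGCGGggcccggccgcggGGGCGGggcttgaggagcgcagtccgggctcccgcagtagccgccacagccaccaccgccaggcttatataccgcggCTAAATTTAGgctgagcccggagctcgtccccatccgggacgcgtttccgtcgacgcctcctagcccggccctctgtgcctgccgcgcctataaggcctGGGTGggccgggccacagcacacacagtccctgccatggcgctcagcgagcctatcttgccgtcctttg
The Klf4 window holds 4 GC boxes, 2 of which overlap by a base, 1 E-box and no CACCC box or MEF2 site by these letters. The Klf2 window holds 2 GC boxes, 1 CACCC box and 1 MEF2 site, and none of the marked matches overlap. Among the 8 member windows, 7 hold a GC box and 6 a CACCC box, against 35.7% and 57.5% of the 32851 windows in the table. An E-box was found in 3 of the 8 (Klf4, Klf6 and Klf15), against 7.15% of all windows, and a MEF2 site in 1, against 3.69%. An AP-1 site (TGANTCA) was found in 1, that of Klf9, against 7.81%, and a heat shock element (GAANNTTC) in 0, against 7.86%. The base composition of the windows differs, with 58.3% to 76.7% G and C among the members, and a match is a description of letters only.

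The comparison of LGG-treated with untreated cells asks which members differ in cells kept in the conditioned medium. Klf4 fell, 0 members rose, and 7 of the 8 tested genes did not pass. Of all 6952 genes tested, 6.5% were called, 3.01% higher and 3.5% lower, so 1 call among 8 genes is close to the share of all genes. An unadjusted p under 0.05 was reached by 2 members, Klf4 and Klf5, and by 20.3% of all genes. The groups did not overlap for 3 of the 8 (Klf3 lower, Klf5 and Klf10 higher in LGG), against 48.5% of all genes. The log2 ratio had the same sign at both dates for 6 of the 8, against 65.2% of all genes. The median fitted log2 change was -0.17 over the 8 members and 0.03 over all genes, with medians at dates 1 and 2 of -0.17 and -0.18 for the members and -0.02 and 0.08 for all genes.

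**Figure D1:**
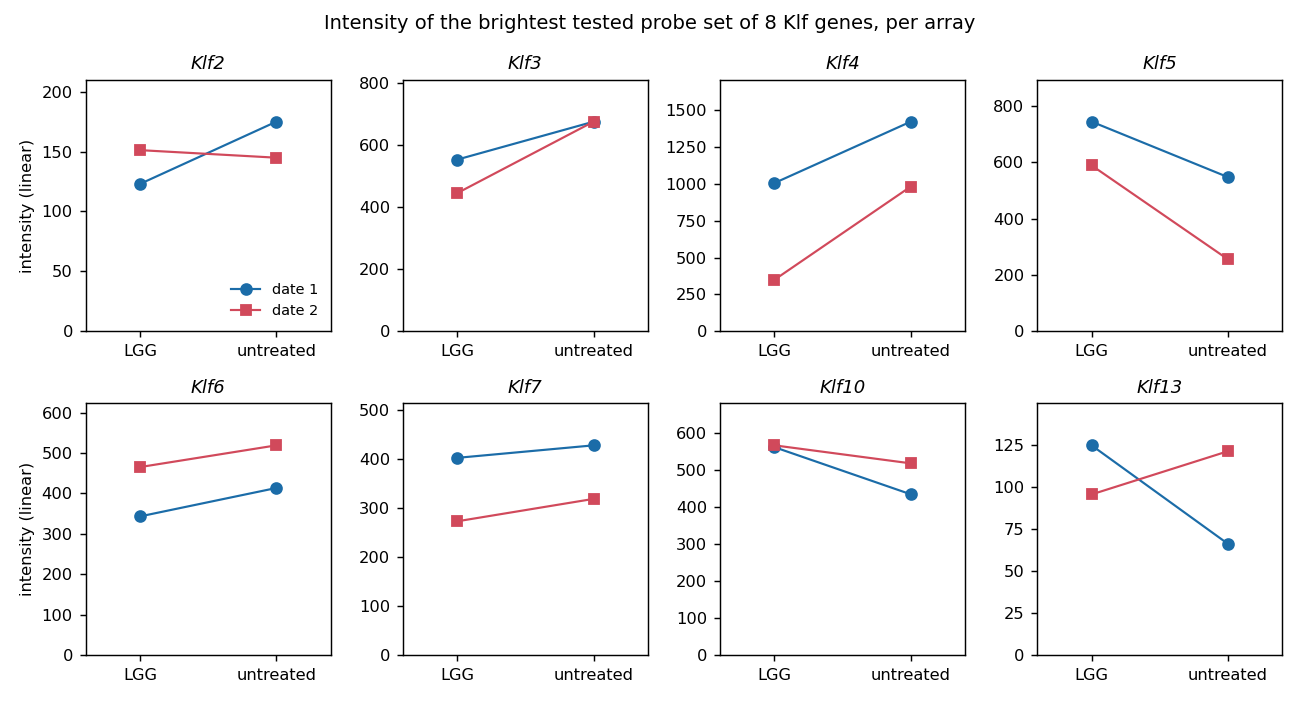
Linear intensity of the brightest tested probe set of each of 8 Klf genes on every array, LGG left and untreated right, with a line joining the 2 arrays of a date (circles date 1, squares date 2). Klf4 is lower and Klf5 higher in LGG at each date, while the lines of Klf2 and Klf13 cross.

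Klf4, the gut-enriched factor, was measured by a pair of probe sets with the same source sequence in the annotation. The brighter one, 1417394_at, measured 1006.7 and 349.4 on the LGG arrays of dates 1 and 2, and 1424 and 982.9 on the untreated arrays. Each LGG array was below the untreated array of its date, but the LGG array of date 1 was above the untreated array of date 2, so the groups overlap. The means were 678 ± 465 in LGG-treated and 1200 ± 312 in untreated cells (SD, n = 2 arrays each). The fitted log2 change was -0.96 ± 0.25 (SE; limma, adjusted p = 0.0348), a 1.94-fold fall, with a 95% interval of -1.49 to -0.43. The fall was uneven between dates: the log2 ratio was -0.49 for date 1 and -1.43 for date 2. These ratios lie further apart than the SE of 0.25 implies. With 1 residual against 12.5 prior degrees of freedom, that SE is set mainly by how other genes varied. The SE, interval and call are therefore not a measure of the precision of Klf4 alone. At least 2-fold lower at date 2 were 3.18% of all genes. The other probe set, 1417395_at, measured 701.9 and 308.6 on the LGG arrays and 791.5 and 743.1 on the untreated arrays. Its groups do not overlap, its log2 ratios were -0.17 and -1.20 at dates 1 and 2, and its fitted log2 change of -0.69 ± 0.26 did not pass (adjusted p = 0.154).

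The call for Klf4 depends on the date block and on single arrays. Without date as a block the log2 change was again -0.96 and the adjusted p was 0.347 (limma). In fits without the block, it was -0.23 without LGG replicate 2 (adjusted p = 0.693), -0.70 without untreated replicate 1 (0.885) and -1.22 without untreated replicate 2 (0.665), and -1.69 without LGG replicate 1 (0.0113). The Gapdh 3' to 5' ratio, which is higher in less intact RNA, was 0.768 on the LGG array of date 2, which carries the low Klf4 value. It was 0.931 on the LGG array of date 1, which stands apart from the others, and the part of RNA integrity in the result was not tested.

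Klf5, the factor of dividing crypt cells, measured 744 and 588.7 on the LGG arrays of dates 1 and 2, and 547.1 and 255.2 on the untreated arrays, by its brighter probe set 1451021_a_at. Both LGG arrays were above both untreated arrays, and the LGG arrays differed by -0.33 between the dates, against -1.03 for the untreated arrays (date 2 minus date 1, log2 scale). The fitted log2 change was 0.78 ± 0.25 (95% interval 0.25 to 1.31), with log2 ratios of 0.43 and 1.13 at dates 1 and 2, and did not pass (limma, adjusted p = 0.0816). As for Klf4, the SE and the width of the interval are set mainly by how other genes varied. They are not a measure of the precision of Klf5 alone. The other probe set, 1451739_at, measured 224.6 and 282.2 on the LGG arrays and 167.9 and 135.9 on the untreated arrays. Its groups do not overlap either, and its fitted log2 change was 0.65 ± 0.27 (adjusted p = 0.185). With each gene taken as the mean of its tested probe sets, Klf5 passed (0.72, adjusted p = 0.0341) and so did Klf4 (-0.82, adjusted p = 0.00859), in a fit that called 11.7% of all genes. Without untreated replicate 2 the log2 change of Klf5 was 0.26, and without untreated replicate 1 it was 1.29. The signs of Klf4 and Klf5 were opposite at both dates and in every probe set tested.

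**Figure D2:**
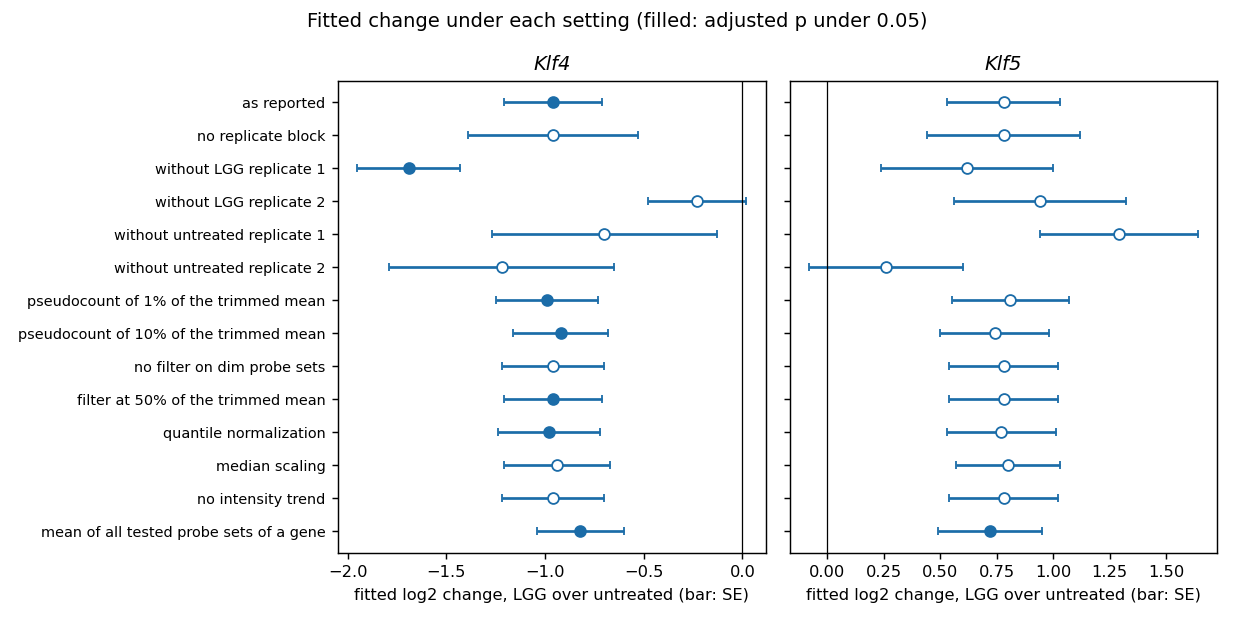
Fitted log2 change of Klf4 (left) and Klf5 (right), LGG over untreated, as reported and under 13 other settings, with the SE as a bar and filled points for an adjusted p under 0.05. Klf4 stays below 0 at -1.69 to -0.23 and Klf5 above 0 at 0.26 to 1.29 over these settings.

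Klf2, known for quiescence of T cells and endothelium, measured 123 and 151.2 on the LGG arrays and 175 and 144.9 on the untreated arrays. The groups overlap and the log2 ratios, -0.43 for date 1 and 0.05 for date 2, differ in sign (fitted log2 change -0.19 ± 0.28, 95% interval -0.78 to 0.40, limma adjusted p = 0.76). Klf2 and Klf4 share known inducers, the kinases MEK5 and ERK5 and the MEF2 factors. Of 5 genes tested from a list of these and of MEKK kinases (Map3k3), 0 rose and 0 fell by limma (0 at an unadjusted p under 0.05). Their median log2 change was 0.21, against 0.03 over all genes. Transcript levels do not give the activity of these kinases. Map2k5, which encodes MEK5, had a log2 change of -0.44 and Mapk7, which encodes ERK5, 0.42, neither of which passed (adjusted p = 0.311 and 0.38).

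Klf3, a repressor that recruits CtBP, measured 553.5 and 445.4 on the LGG arrays and 675.8 and 675.9 on the untreated arrays by 1421604_a_at. Both LGG arrays were below both untreated arrays, and the fitted log2 change of -0.43 ± 0.23 (95% interval -0.92 to 0.06) did not pass (limma, adjusted p = 0.317). The other probe sets of Klf3 have values at date 2 only and differ from each other in direction. There, 1429360_at measured 211.2 on the LGG array and 815.3 on the untreated array, a 3.55-fold lower value on the log2(intensity + 25.2) scale. In contrast, 1431630_a_at measured 1200.3 on the LGG array and 801.2 on the untreated array, a log2 ratio of 0.57. Among the 3321 probe sets with a single symbol, a value at date 2 only and a mean there above the filter, 4.1% were at least 2-fold lower and 2.29% at least 2-fold higher in LGG, a comparison of 2 arrays with no replicate. The annotation gives each Klf3 set another source sequence, and which transcript forms each reads is not given in the sources used here.

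Klf6, an early response gene, measured 343.1 and 465.3 on the LGG arrays and 413.5 and 519.1 on the untreated arrays by 1418280_at. Both groups were higher at date 2, the groups overlap, and the fitted log2 change was -0.20 ± 0.23 (limma, adjusted p = 0.69). The probe set 1427742_a_at gave 381.3 and 362.4 on the LGG arrays and 215.9 and 388.6 on the untreated arrays, a fitted log2 change of 0.33 (adjusted p = 0.538) that comes from date 1, where the log2 ratio was 0.75 against -0.09 at date 2. A further set with date 2 only, 1433508_at, measured 621.6 in LGG and 832.3 untreated.

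Klf10, known as a TGF-beta inducible early gene, measured 560.7 and 565.6 on the LGG arrays and 433.5 and 517 on the untreated arrays. Both LGG arrays were above both untreated arrays by a small margin (fitted log2 change 0.24 ± 0.23, 95% interval -0.25 to 0.73, limma adjusted p = 0.617). Of 16 genes tested from a list of the early TGF-beta response and its receptors, 1 rose and 3 fell, with a median log2 change of -0.33, against 3.01% and 3.5% of all genes. An unadjusted p under 0.05 was reached by 7 of the 16, against 20.3% of all genes. The list was chosen with earlier results of these data known, so its counts cannot show an excess over all genes. The genes that fell were Id1, an inhibitor of helix-loop-helix factors (-1.55 ± 0.27, adjusted p = 0.00417), the clock repressor Bhlhe40 (-0.95, 0.0288) and, close to the threshold, the receptor gene Tgfbr2 (-0.63, 0.044). The call of Tgfbr2 was lost under 12 of 13 alternatives, and its other probe set had log2 ratios of -0.79 and 0.79 at dates 1 and 2, so that the mean of its probe sets gave -0.32 (adjusted p = 0.373). The gene that rose was Ccn2 (1.78, 0.000186), and Tgfb1 did not pass (0.77, 0.0931). The call of Bhlhe40 was lost under 8 of 13 alternatives. Among these were no block (-0.95, limma adjusted p = 0.23), no filter (0.155), median scaling (0.055) and no intensity trend (0.0556). Its log2 change was -0.69 without LGG replicate 1 and -1.20 without LGG replicate 2. Id1 was not called without the block (-1.55, adjusted p = 0.0867) or without a filter (0.134). In the fits without an untreated array, which also have no block, limma called 0 of all genes, these among them (485 and 533 genes at an unadjusted p under 0.05).

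**Figure D3:**
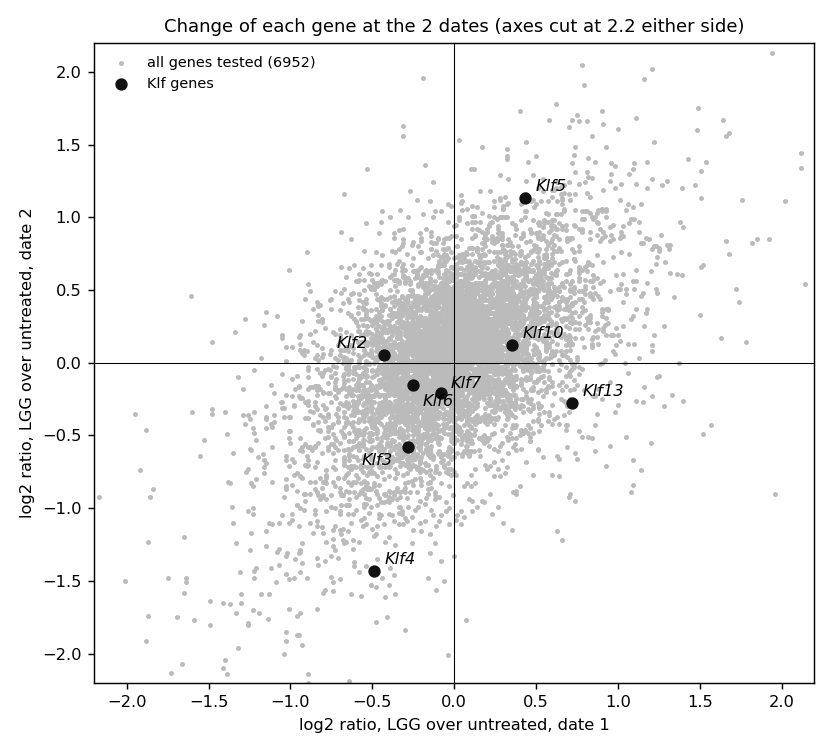
Log2 ratio of LGG over untreated at date 1 (horizontal) and date 2 (vertical) for all 6952 genes tested (grey) and 8 Klf genes (black), with both axes cut at 2.2. Klf4 at -0.49 and -1.43 and Klf5 at 0.43 and 1.13 lie apart from the other members.

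Klf7, known for its role in neurons, has 4 probe sets with the same source sequence in the annotation, which disagree. The brightest, 1449439_at, measured 401.9 and 272.5 on the LGG arrays and 427.4 and 318.2 on the untreated arrays (fitted log2 change -0.14 ± 0.24, limma adjusted p = 0.793). By 1419356_at Klf7 measured 307.4 and 354.2 on the LGG arrays and 169.1 and 200.6 on the untreated arrays. Here the groups do not overlap and the dates gave near-equal log2 ratios of 0.78 and 0.75 (fitted 0.76 ± 0.25, adjusted p = 0.0909). The set 1419354_at had log2 ratios of 0.77 and 0.06 (fitted 0.42, adjusted p = 0.428), and 1419355_at, under the filter, -0.05 and -1.33. The tested sets of Klf7 span 0.91 on the log2 scale and those of Klf6 0.53, against 0.27 for Klf4, 0.13 for Klf5 and a median of 0.26 over the 2037 genes with several tested probe sets. The fitted changes differ in sign among the tested sets of Klf6 and Klf7, as they do for 32.2% of those genes.

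Klf9 and Klf13 encode related repressors that bind the SIN3A complex. Klf13 measured 124.7 and 95.5 on the LGG arrays and 66.1 and 121.2 on the untreated arrays by 1432543_a_at, whose mean of 101.9 is just above the filter. The log2 ratios were 0.72 at date 1 and -0.28 at date 2, so the groups cross (fitted log2 change 0.22 ± 0.31, limma adjusted p = 0.759). At date 2 its set 1436316_at gave 240 in LGG and 250.6 untreated, and 1456030_at gave 18 in LGG and 16 untreated. Klf9 has 7 probe sets, 5 of them with a value at date 2 only. The brightest, 1428288_at, measured 475.4 in LGG and 986.1 untreated at date 2, a log2 ratio of -1.01, and 1428289_at, with the same source sequence, 282.5 in LGG and 371.4 untreated. Of the sets with values at both dates, 1436763_a_at measured 128.5 and 84 on the LGG arrays and 63.3 and 21.1 on the untreated arrays. Its log2 ratios were 0.80 and 1.24, with a mean of 74.2 that is under the filter. With no filter its fitted log2 change was 1.02 (adjusted p = 0.213). The set 1422264_s_at measured 11.1 and 47.7 on the LGG arrays and 25.1 and 23.1 on the untreated arrays, and the remaining 3 sets had log2 ratios of -0.26, -0.21 and 1.15 at date 2. Thus no single direction can be given for Klf9.

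Klf15, a glucocorticoid-induced regulator of amino acid metabolism, measured 4 and 2.2 on the LGG arrays and 4.7 and 2.5 on the untreated arrays, under the filter on every array. Of 3 of its known metabolic targets tested, 0 rose and 0 fell (0 at an unadjusted p under 0.05), and Bcat2, which encodes a branched-chain aminotransferase, had a log2 change of -0.46 (limma, adjusted p = 0.342). Klf9 and Klf15 are known glucocorticoid targets. Of 10 other genes tested from a list of glucocorticoid-induced genes, 3 rose and 2 fell, with a median log2 change of 0.46, against 3.01% and 3.5% of all genes. An unadjusted p under 0.05 was reached by 6 of the 10, against 20.3% of all genes. This list was chosen with earlier results of these data known, so its counts cannot show an excess over all genes. Sgk1, Dusp1 and Tsc22d3, which encodes the leucine zipper protein GILZ, rose (1.97, 1.73 and 1.06), and Cebpd and Mt1 fell (-1.12 and -2.16). Without the block Sgk1, Tsc22d3 and Cebpd were not called (adjusted p = 0.0771, 0.124 and 0.065). Without LGG replicate 1 Sgk1 (1.28, adjusted p = 0.053) and Tsc22d3 (1.10, 0.0941) were not called, and without LGG replicate 2 Tsc22d3 (1.02, 0.152) and Cebpd (-0.86, 0.0601) were not.

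**Figure D4:**
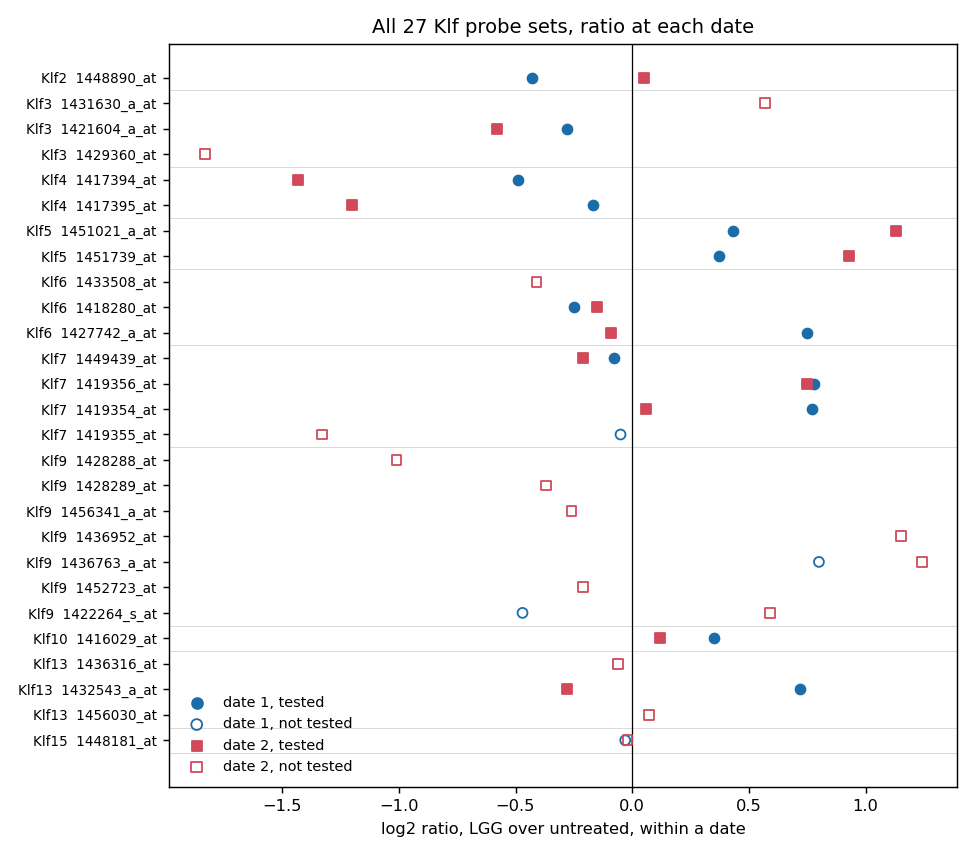
Log2 ratio of LGG over untreated within date 1 (circles) and date 2 (squares) for all 27 probe sets of the 10 Klf genes, filled where the probe set was tested. The sets of Klf4 lie below 0 and those of Klf5 above 0, while those of Klf3, Klf6, Klf7, Klf9 and Klf13 lie on both sides.

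Other lists hold genes known to act with or under these factors, and 6.5% of all genes were called. They too were chosen with earlier results of these data known. Of 13 tested genes known as targets of KLF4 and KLF5, 0 rose and 0 fell by limma (5 at an unadjusted p under 0.05, against 20.3% of all genes), with a median log2 change of -0.12. Krt19, a keratin of simple epithelia, had a log2 change of -0.72 (limma, adjusted p = 0.0693) and the CDK inhibitor gene Cdkn1a -0.44 (0.0953). The polycomb gene Bmi1 had -0.64 (0.119) and Laptm4b 0.47 (0.182). The list does not separate activated from repressed targets, so a relation of these changes to that of Klf4 was not tested. The limma fit on the mean of the tested probe sets called 11.7% of all genes. It called Bmi1 (-0.78, adjusted p = 0.0121), Krt19 (-0.72, 0.0143) and Cdkn1a (-0.53, 0.0453) lower. The log2 change of Krt19 was the same as in the reported fit. Of 8 endothelial-type targets of KLF2 and KLF4 tested, 1 rose, the arrestin gene Txnip (2.05, limma adjusted p = 0.000187), and 0 fell. An unadjusted p under 0.05 was reached by 2 of the 8. The call of Txnip was lost under 3 of 13 alternatives, no filter (adjusted p = 0.0818) and the fits without an untreated array. This list does not separate activated from repressed targets either. Of 19 corepressors, coactivators and ubiquitin ligases that act on KLFs, 0 rose and 1 fell, the ligase gene Nedd4 (-0.71 ± 0.17, adjusted p = 0.0281), with a median of -0.11. The call of Nedd4 was lost under 7 of 13 alternatives. Among these were no date block (limma, adjusted p = 0.159), no filter (0.204), median scaling (0.0576) and no intensity trend (0.153). Its log2 change was -0.43 without LGG replicate 1 and -0.98 without LGG replicate 2. Btrc, an F-box protein that targets KLF4 for degradation, did not pass in the reported fit (0.82, adjusted p = 0.0609). Of 4 other KLF and SP factors tested, 0 rose and 0 fell (1 at an unadjusted p under 0.05), with log2 changes of 0.59 for Sp7, 0.34 for Sp1, 0.13 for Klf16 and -0.16 for Sp3.

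By distance between the log2 ratios at both dates, the genes nearest to Klf4 were Nfib, at -0.54 and -1.40, Plac1, at -0.44 and -1.48, and S100a4, at -0.47 and -1.35. Another probe set of Nfib had a fitted change of 0.03. Nearest to Klf5 were Clasrp, at 0.43 and 1.15, Slc8b1, at 0.44 and 1.16, and Prrc1, at 0.46 and 1.12, whose other probe set had a fitted change of 0.02. These distances, 0.0241 to 0.0779 on the log2 scale, rest on 4 arrays and are a description without a test.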

How the data were processed

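Gene expression was measured on 4 mouse 430A arrays. The authors deposited linear intensity values, with software, scaling and detection calls not given in the sources used here. Values were never negative and had trimmed means between 500.1 and 513.5, so the arrays look scaled to the same mean. No bound against background can be given for dim probe sets.

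Groups and dates came from the titles. Each date holds 1 array of each group, so date was a block, and the difference between dates correlated at 0.27 between the groups. Control probe sets (64) were left out, and 10333 probe sets with values on all arrays and a mean intensity not below 101 (20% of the trimmed mean) were tested on log2(intensity + 25.2) with limma 3.58.1 in R 4.3.3 (lmFit, eBayes with a trend, two-sided, Benjamini-Hochberg over all probe sets). The fit had 1 residual and 12.5 prior degrees of freedom, so SE and p rest mostly on variance shared across genes. The smallest two-sided p of an exact permutation of these 4 arrays is 0.333, or 0.5 with labels exchanged only within dates. On simulated data the fit recovered known changes, with more false calls than the nominal rate. Gene symbols are those of the platform annotation given beside the values (20393 probe sets with 1 symbol, 691 with several, 1606 with none). No build is named for the array.

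All members are named with all their probe sets, and of each list the genes called and up to 4 of the largest changes with the same sign at both dates. Sp1 and Sp3 were named after their values were seen, to account for a small list. The members and lists were chosen with earlier results of these data known. In all, 13 alternatives were run. Figures used matplotlib 3.10.9.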

Additional observations from a re-analysis of the deposited data

Results flagged for a closer look

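A Klf9 probe set outside the comparison, 1436952_at, has values at date 2 only and was brighter in LGG-treated than in untreated cells, at 188 and 70.9, a log2 ratio of 1.15. It is 1 array against 1 array with no replicate, and 2.29% of the probe sets measured at date 2 only were at least 2-fold higher in LGG. The brightest Klf9 set, 1428288_at, went the other way at the same date, with a log2 ratio of -1.01.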

How the results depend on the processing

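The 8 tested members kept their sign under all alternatives run except as follows. Klf13 turned to -0.12 without untreated replicate 1, in a range of -0.12 to 0.56 over the arrays left out. Klf6 turned to 0.01 without LGG replicate 1 (range -0.41 to 0.01) and to 0.06 with the mean of its tested probe sets. Klf7 turned to 0.12 without LGG replicate 2 and 0.05 without untreated replicate 1 (range -0.41 to 0.12) and to 0.34 with the mean of its probe sets. Klf4 kept its direction under 13 of 13 alternatives, and its adjusted p was above the threshold under 7 of them. These were no date block (the replicate block; -0.96), no filter on dim probe sets (-0.96), median scaling (-0.94), no intensity trend (-0.96) and 3 of the 4 arrays left out (range -1.69 to -0.23). Klf5 passed with the mean of its probe sets (0.72). So 0 members were called lower without the block, without a filter, with median scaling and with no trend (limma, against 1 as reported; 0 to 1 with an array left out), and 1 was called higher with the mean of probe sets, against 0. Unadjusted p was under 0.05 for 0 members without the block, for 3 of 10 without a filter and for 2 of 8 with median scaling or no trend. Over all genes it was under 0.05 for 1064 of 6952 without the block and 1525 of 10782 without a filter. With median scaling it was so for 1375 of 6952 genes, and with no trend for 1304 of 6952.

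Over all genes, 209 were called higher and 243 lower. Without the block these were 24 and 37 (1064 genes at an unadjusted p under 0.05), without a filter 0 and 0 (1525), with no trend 115 and 129, with median scaling 152 and 152, and with the mean of probe sets 383 and 430. Leaving an array out also drops the block, so those fits stand against 24 and 37. They gave between 0 and 198 genes higher and between 0 and 230 lower, and fits without either untreated array called 0 genes (485 and 533 at an unadjusted p under 0.05). Of the 11 listed genes called, 4 were called without the block, 6 without LGG replicate 1, 7 without LGG replicate 2, 0 without either untreated array and 0 without a filter. Of the 18 listed genes named that were not called, 7 passed with the mean of probe sets (Bmi1, Btrc, Cdkn1a, Ctbp1, Krt19, Nqo1 and Tgfb1) and 3 without LGG replicate 1 (Bmi1, Btrc and Ctbp1). With the mean of probe sets, Btrc (0.82), Ctbp1 (-0.50), Krt19 (-0.72), Nqo1 (0.82) and Tgfb1 (0.77) kept the log2 change of the main fit. Only the adjusted p of these genes was lower with the mean of probe sets. In the main fit Ctbp1 and Nqo1 did not pass (limma, adjusted p = 0.124 and 0.0648). Among listed genes that did not pass, Gpt turned to -0.04 without untreated replicate 1 (range over arrays left out -0.04 to 0.41), Map3k3 to -0.10 without LGG replicate 1 (-0.10 to 0.53), and Sp7 to -0.02 without LGG replicate 1 and -0.10 without untreated replicate 2 (-0.10 to 1.28). The causes were not tested. An array left out changes both the arrays and the block, and no filter adds probe sets to the test. With 2 arrays per group, the size of changes near the threshold is loosely set.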
